A study of Mus musculus with 2 samples.

Results

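The circadian clock genes described here are 10 genes of the 32285 in the count table, chosen by name: Arntl and Clock (activators), Per1, Per2, Per3, Cry1, Nr1d1 and Nr1d2 (repressors), and Dbp and Hlf (outputs). All 10 were in the table, and all 10 passed the filter used for ratios, a count in at least 1% of the cells of either library. The cells were live microglia (CD45loCD11b+ and negative for DAPI) sorted from the cortex and hippocampus of PSAPP mice, which carry the APPswe and PS1δE9 transgenes and develop amyloid plaques. Both groups carried these transgenes and no group without them was analysed here. The VEH group received vehicle and the LEM group received lemborexant, a dual orexin receptor antagonist given as a sleep aid, by gavage each day (30 mg/kg/day), for 30 days from 9 months of age. The mice were perfused at 10 months. The study's methods place gavage at lights on and every perfusion within a window in the middle of the light phase. With a single time of day, the phase of a rhythm and its level cannot be told apart. The time of perfusion of each mouse is not given in the sources used here. Each group was 1 library of cells from 5 mice of both sexes, so there is no replicate of treatment and no test of it.

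In the mammalian clock, BMAL1 (the product of Arntl) and CLOCK form a dimer that binds E-box sequences and switches on the Per and Cry genes. PER and CRY proteins then block that dimer, which closes the main loop. A second loop runs through Nr1d1 and Nr1d2, which encode REV-ERBα and REV-ERBβ, repressors of Arntl that bind ROR elements. Dbp, Hlf and Tef encode PAR bZIP factors, which bind D-boxes and carry the rhythm to other genes. Microglia are known to have a working clock, and Per1 is also known as a gene that answers quickly to stimulation and to glucocorticoids.

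Motifs of the clock loops were searched on both strands in the RefSeq promoters of GRCm38.p6, the assembly that mm10 corresponds to, taking 250 bases before to 50 after each start. The promoter table held 9 of the 10 members. Windows of Per3, Arntl, Cry1 and Per1 held a match, and their sequences are shown because they carry the 3 kinds of element by which the arms of the clock are known to be wired. The motif is in capitals, and the E-box (CACGTG) stood in 7.15% of all promoters, the D-box (TTATGTAA or TTACGTAA) in 1.06% and the ROR element (ANTAGGTCA) in 0.661%. A match is a description of the letters and not a bound site, and no 2 of these motifs overlap in the windows shown.
Per3, 2 D-boxes, chr4:151044791-151044895, minus strand: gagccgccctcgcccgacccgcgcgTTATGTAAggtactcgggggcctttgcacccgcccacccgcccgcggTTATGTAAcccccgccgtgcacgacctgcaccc
Arntl, ROR element, chr7:113207529-113207558, plus strand: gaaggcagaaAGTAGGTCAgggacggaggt
Cry1, E-box, chr10:85185084-85185139, minus strand: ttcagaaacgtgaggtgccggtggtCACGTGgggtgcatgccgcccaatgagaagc
Per1, E-box, chr11:69098758-69098813, plus strand: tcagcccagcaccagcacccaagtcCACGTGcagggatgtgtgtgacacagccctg
Counted from the start of transcription, the D-boxes of Per3 began at −205 and −158, the E-box of Cry1 at −60, that of Per1 at −166 from one of its 2 starts, and the ROR element of Arntl at 28 from one of its 2 starts. Of the other clock genes, 14 of 20 had a promoter entry, of which Tef, Bhlhe41 and Ciart held an E-box, Nfil3 a ROR element and Timeless a D-box.

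The 2 libraries held 18374 cells (VEH) and 24392 cells (LEM), with 116229678 and 160752298 counts in all and medians of 5971 and 6034 counts per cell. Values are counts of unique molecules, each read at the 5′ end, so levels of different genes are compared as CPM (a count scaled to the library's total) with no division by length. Intervals are 95% Poisson intervals and cover counting error only, not the spread between mice. The 6 microglial markers summed to 40976 CPM in VEH and 41812 CPM in LEM. Cells were parted by sex from Xist and 4 Y-linked genes, giving 5686 female and 9025 male cells in VEH and 8409 female and 11223 male cells in LEM. Cells with both signals (981 in VEH and 1764 in LEM) or with neither (2682 and 2996) entered no sex ratio. The former were deeper than the sexed cells (median 11003 counts in VEH and 10811.5 in LEM) and the latter shallower (3696 and 4104.5). How many mice stand behind each sex pool is not given in the sources used here, so animal, library and treatment cannot be told apart within a sex.

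Among the members Per1 stood highest, at 79.0 CPM in VEH and 70.7 CPM in LEM, and Clock came next at 46.7 and 43.5 CPM. Hlf followed at 26.5 and 22.9 CPM, and then Nr1d2 at 20.3 and 22.1 CPM, with overlapping intervals for this pair in LEM. In VEH, the order went on with Arntl at 15.7 CPM, Cry1 at 14.5 CPM, Dbp at 14.1 CPM and Per3 at 11.1 CPM. The intervals of Arntl and Cry1 overlapped there, as did those of Cry1 and Dbp. In LEM, Dbp (19.8 CPM) and Per3 (14.6 CPM) stood before Arntl (13.8 CPM) and Cry1 (11.8 CPM), and the intervals of Per3 and Arntl overlapped. Per2 at 5.05 and 6.06 CPM and Nr1d1 at 1.76 and 2.87 CPM were the lowest in both libraries. Nr1d1 rested on 204 counts in VEH and 461 in LEM, so its values were the least precise of the 10.

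Over whole libraries, the clock genes differed between LEM and VEH in both directions, and among the 10 members only Cry1 was called. A gene was called where its ratio was at least 1.2-fold and had the same sign in female and male cells. By this rule 0 of 10 members were higher (background 4.78% of 11910 genes) and 1 of 10 was lower (background 3.51%). The median log2 ratio of the members was 0.01, like that of all genes tested (0.01). Nr1d1 (1.63-fold), Dbp (1.40-fold) and Per3 (1.31-fold) passed 1.2-fold over the library but not the rule on sign. For these 3, and for Arntl, Per2 and Nr1d2, the library ratio joined ratios on opposite sides of 0 in the sexes, which are therefore given first.

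In male cells, 5 of 10 members were at least 1.2-fold higher in LEM (background 8.02%), namely Per2, Per3, Nr1d1, Nr1d2 and Dbp, and 1 of 10, Arntl, was at least 1.2-fold lower (background 5.31%). In female cells, 0 of 10 were at least 1.2-fold higher (background 8.77%) and 4 of 10 were at least 1.2-fold lower (background 7.88%), namely Per2, Per3, Cry1 and Nr1d2. The median log2 ratio of the members was 0.25 in male and −0.19 in female cells, beside 0.02 and 0.00 for all genes. The genes Per2, Per3, Nr1d2 and Dbp (4 of 10) were higher in male and lower in female cells with neither interval reaching 0, a pattern that 5.91% of all genes had. After every cell was thinned to 2000 counts, 2 of the 4 (Nr1d2 and Dbp) kept both intervals clear of 0.

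**Figure D1:**
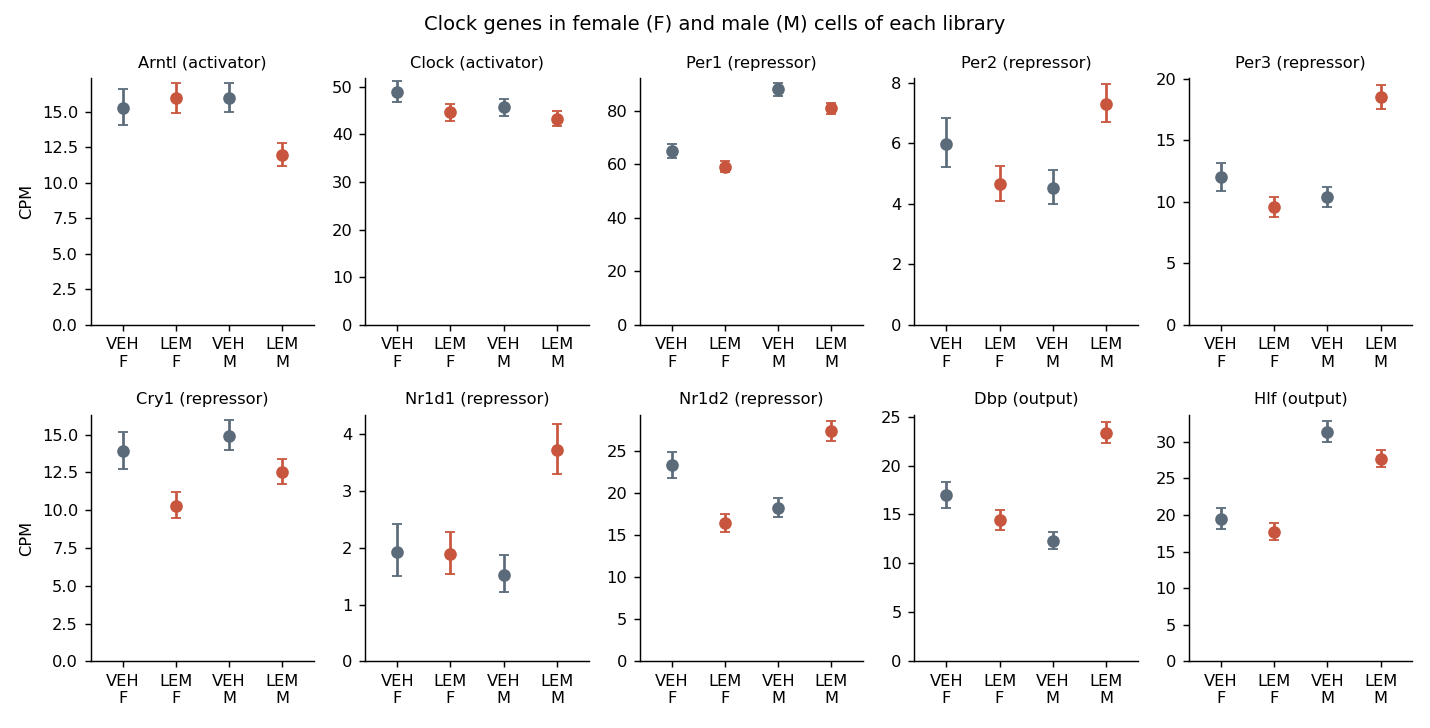
Level (CPM, axis from 0) of each clock gene in female (F) and male (M) cells of the VEH (grey) and LEM (red) libraries, with 95% Poisson intervals. The LEM male cells stand highest for Per2, Per3, Nr1d1, Nr1d2 and Dbp and lowest for Arntl, while Per1 and Hlf are lower in female than in male cells of both libraries.

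Of the activators, Arntl encodes BMAL1, the partner without which the loop cannot run. It stood at 15.3 CPM in VEH female, 16.0 in VEH male, 16.0 in LEM female and 12 CPM in LEM male cells. The LEM male cells were the low pool and the other 3 overlapped. Its log2 ratio was −0.42 (−0.55 to −0.28) in male and 0.06 (−0.09 to 0.22) in female cells. Clock, its partner, varied least among the members, from 49.0 CPM in VEH female and 45.7 CPM in VEH male cells to 44.6 CPM in LEM female and 43.3 CPM in LEM male cells. Its log2 ratio was −0.13 (−0.22 to −0.04) for female cells and −0.08 (−0.15 to −0.00) for male ones. The activators summed to 62.3 CPM in VEH and 57.3 CPM in LEM.

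Among the repressors of the main loop, Per1 was lower in LEM in both sexes, at a log2 ratio of −0.14 (−0.22 to −0.07) for female cells and −0.12 (−0.18 to −0.07) for male ones. Its level went from 65.1 to 59.0 CPM in female cells and from 88.1 to 81.0 CPM in male cells, so the sexes lay further apart than the libraries. Cry1, a cryptochrome that blocks the dimer, went from 13.9 to 10.3 CPM in female cells and from 14.9 to 12.5 CPM in male cells. Its log2 ratio over the library was −0.29 (−0.39 to −0.20), beside −0.43 for female and −0.25 for male cells. After thinning, the log2 ratio of Cry1 was −0.19, which is under 1.2-fold.

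Per2 and Per3, the other Period genes, each had opposite directions in the sexes when all counts were used. Per2 went from 6.0 to 4.66 CPM in female cells (log2 ratio −0.36, −0.63 to −0.10) and from 4.54 to 7.31 CPM in male cells (0.69, 0.47 to 0.91). Per3 went from 12 to 9.55 CPM in female cells (log2 ratio −0.33, −0.52 to −0.15) and from 10.4 to 18.5 CPM in male cells (0.83, 0.69 to 0.97). For both genes the LEM male cells were the highest and the LEM female cells were low, near or below VEH male cells. After thinning, the female ratio of Per2 was 0.12 (−0.42 to 0.67) and its male ratio 0.40 (−0.01 to 0.82). The opposite directions of Per2 were thus not seen at that depth, though these intervals hold its ratios on all counts. The thinned ratios of Per3 were −0.21 (−0.54 to 0.13) for female and 0.82 (0.56 to 1.08) for male cells.

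On all counts, the REV-ERB genes of the second loop held the highest male ratio (Nr1d1) and the lowest female ratio (Nr1d2) of the 10 members. After thinning, Nr1d1 held both. Nr1d1 was at 1.92 CPM in VEH female and 1.88 CPM in LEM female cells, and its log2 ratio there was −0.02 (−0.48 to 0.43). In male cells Nr1d1 went from 1.52 CPM (89 counts) to 3.72 CPM (274 counts), a log2 ratio of 1.29 (0.94 to 1.65). After thinning, the log2 ratio of Nr1d1 was −0.70 (−1.56 to 0.16) for female cells and 1.89 (1.22 to 2.63) for male ones. These intervals hold its ratios on all counts. Nr1d2 went from 23.3 to 16.5 CPM in female cells (log2 ratio −0.50, −0.64 to −0.37) and from 18.3 to 27.4 CPM in male cells (0.58, 0.48 to 0.69). In the pool with the most Nr1d1 and Nr1d2, the LEM male cells, Arntl was lowest. Across the other pools Nr1d2 ran from 16.5 to 23.3 CPM, while the intervals of Arntl overlapped. A link between these genes was not tested. The 6 repressors summed to 122 CPM in VEH female, 138 in VEH male, 102 in LEM female and 150.5 CPM in LEM male cells. Per1, which was lower in LEM in both sexes, gave most of each sum (65.1, 88.1, 59.0 and 81.0 CPM). Over whole libraries the log2 ratio of the sum was −0.04.

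The output genes parted from each other. Dbp went from 16.9 to 14.4 CPM in female cells (log2 ratio −0.24, −0.39 to −0.08) and from 12.3 to 23.4 CPM in male cells (0.92, 0.80 to 1.05). Hlf, which encodes a factor of the same family, went from 19.5 to 17.7 CPM in female and from 31.3 to 27.7 CPM in male cells. Its log2 ratios of −0.14 (−0.28 to 0.00) and −0.18 (−0.27 to −0.09) were alike in the sexes.

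**Figure D2:**
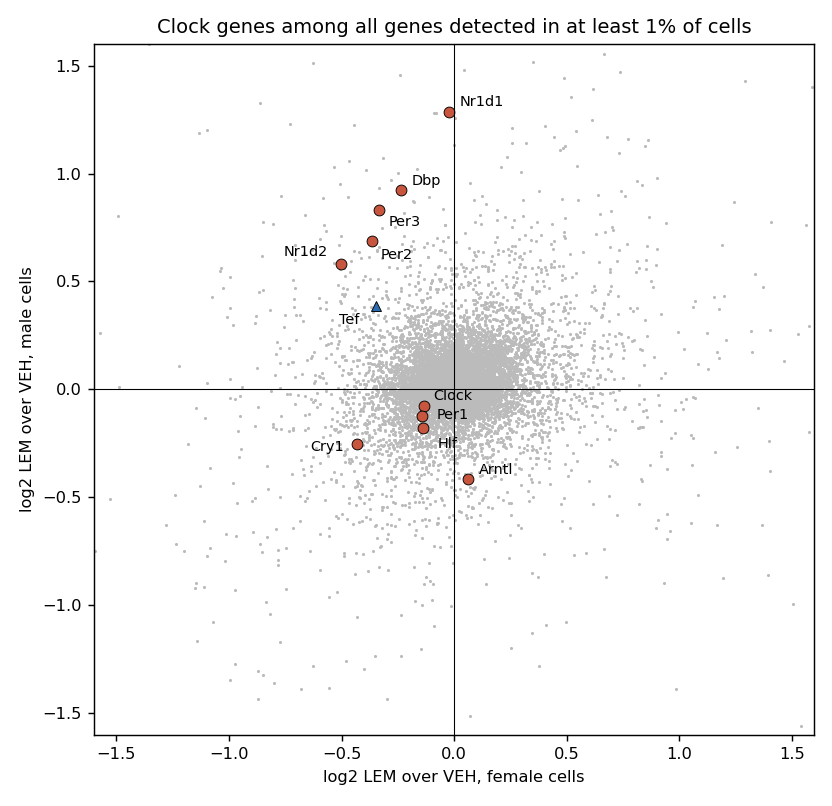
Log2 LEM over VEH in female cells (x axis) and male cells (y axis) for 11812 genes (grey), with the 10 clock genes in red and Tef as a blue triangle. Another 91 genes lie outside the axes, which end at 1.6. Per2, Per3, Nr1d2, Dbp and Tef sit above and to the left of the origin, and Nr1d1 sits above them near 0 for female cells.

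Within a library, where both sexes were processed together, the same genes can be read as a female to male ratio. In VEH, Per2 (log2 0.40), Nr1d1 (0.33), Nr1d2 (0.35) and Dbp (0.46) were higher in female cells, and the interval of Nr1d1 alone among these reached 0. In LEM the same ratios were −0.65, −0.98, −0.74 and −0.70. These 4 of 10 members were at least 1.2-fold higher in female cells of VEH and at least 1.2-fold lower in female cells of LEM, which 1.56% of all genes were. The 2 readings use the same 4 pools and are not separate evidence. Per1 had a female to male log2 ratio of −0.44 in VEH and −0.46 in LEM, and Hlf one of −0.68 and −0.64, so this pair differed by sex to a like degree in both libraries.

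Other genes of the clock were taken from a list of 20, of which 14 passed the filter. Of these 14, 1 was called higher in LEM (Timeless; background 4.78%) and 1 lower (Bhlhe40, a repressor that competes for E-boxes; background 3.51%). Tef, another PAR bZIP factor, went from 36.6 to 28.7 CPM in female cells (log2 ratio −0.35, −0.46 to −0.24) and from 30.2 to 39.5 CPM in male cells (0.38, 0.30 to 0.47). It was the only one of the 14 that was higher in male and lower in female cells with neither interval at 0 (background 5.91%). Bhlhe41 had the reverse pattern, with log2 ratios of 0.13 in female and −0.11 in male cells, which 2.99% of all genes and 0 of 10 members had. The kinase and ubiquitin ligase genes that set the pace of PER and CRY turnover had log2 ratios over the library of −0.05 for Csnk1d, 0.09 for Csnk1e and 0.06 for Btrc.

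**Figure D3:**
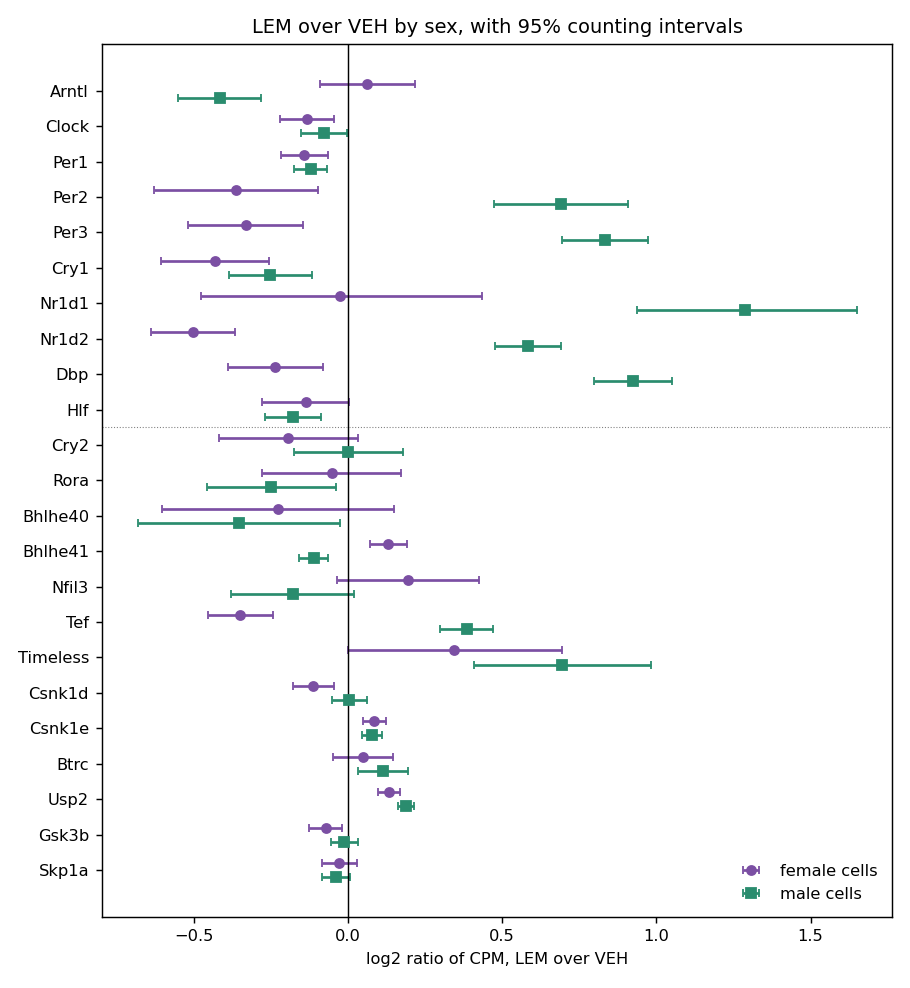
Log2 ratio of CPM, LEM over VEH, in female cells (purple circles) and male cells (green squares) for the 10 clock genes above the dotted line and 13 other clock genes below it, with 95% counting intervals. With neither interval reaching 0, the ratios of the sexes stand on opposite sides of 0 for Per2, Per3, Nr1d2, Dbp and Tef, with male cells higher, and for Bhlhe41, with female cells higher.

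Other measures also differed between the 4 pools. The summed level of 8 immediate early genes went from 7317 to 6231 CPM in female cells (1 of 8 higher in LEM) and from 7095 to 6312 CPM in male cells (2 of 8 higher). The 10 glucocorticoid target genes went from 1307 to 1166 CPM in female cells and from 1426 to 1287 CPM in male cells, with 2 and 5 of 10 higher in LEM. Sgk1 gave most of this sum. Single targets differed by sex in both directions and are named after their values were seen. The male ratio was above the female one for Zbtb16 (log2 −0.05 in female and 0.84 in male cells), Klf9 (−0.14 and 0.41), Cdkn1a (−0.14 and 0.31), Errfi1 (−0.72 and −0.39) and Fkbp5 (−0.11 and 0.03). It was below the female one for Tsc22d3 (−0.24 and −0.37), Ddit4 (−0.03 and −0.16), Hif3a (0.36 and 0.22) and Sgk1 (−0.11 and −0.14), and Pdk4 had 2 counts in each library. The part of either list in the ratios of the clock genes was not tested. The 6 choroid plexus markers went from 15.7 to 21.1 CPM in female cells and from 25.6 to 106 CPM in male cells, with 3 and 6 of 6 higher in LEM. Cells outside every gate are low in these markers by the gate's own rule. There the markers stood at 2.15 CPM in VEH female, 2.03 in LEM female, 2.31 in VEH male and 3.18 CPM in LEM male cells. The log2 ratios of the 10 members there were within 0.05 of those of the whole library, of which these cells made up 93.6% (VEH) and 92.5% (LEM). In such cells Dbp had log2 ratios of −0.24 in female and 0.93 in male cells, Nr1d2 of −0.47 and 0.60, and Nr1d1 of −0.02 and 1.36. The 3 endothelial markers went from 14.7 to 9.48 CPM in male cells (1 of 3 higher in LEM) and from 11.4 to 11.4 CPM in female cells (2 of 3 higher), and in male cells outside every gate from 15.2 to 9.94 CPM. The 5 astrocyte markers went from 2.82 to 3.88 CPM in male cells (4 of 5 higher) and from 3.45 to 3.57 CPM in female cells (2 of 5 higher). The part of these markers in the ratios was not tested.

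Cell states were gated on raw counts, a cell being in a gate with at least 3 of its markers present. The disease-associated microglia (DAM) gate, the state known to gather at plaques, held 612 VEH and 798 LEM cells. The interferon gate held 316 and 531, the proliferating gate 124 and 184, and no gate 17197 and 22559 cells. None of the gate markers is a clock gene. Each state was compared with the cells outside every gate by edgeR's quasi-likelihood test on counts summed per library. The 2 libraries were blocks, and p-values were adjusted over all genes tested. With so few sums per gene, the test estimates spread largely across genes. A p-value therefore says little about a gene's own spread between these 2 pools and nothing about the spread between mice. On plain CPM the median gene was lower in DAM-gated cells by 0.26 (VEH) and 0.25 (LEM) on the log2 scale, and with edgeR's scaling factors its log2 fold change was −0.03. Log2 fold changes are given on the latter scale. Without the factors, 24.0% of the genes called in the DAM gate were higher in place of 54.4%, with 38.6% in place of 56.0% in the interferon gate and 61.4% in place of 46.4% in the proliferating gate.

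In DAM-gated cells, 4 of 10 members fell (Hlf, Clock, Cry1 and Per3; background 17.0%) and 0 of 10 rose (background 20.3%). Hlf showed the largest difference, at 27.9 CPM in other cells against 6.70 CPM in DAM-gated cells of VEH, and 24.3 against 5.71 CPM in LEM. The gap was alike in the libraries, and the intervals of the gate and the other cells did not overlap in either (log2 fold change −1.84 ± 0.12 SE, edgeR adjusted p = 5.4e-08). Clock went from 48.0 to 32.0 CPM in VEH and from 44.5 to 31.5 CPM in LEM (−0.31 ± 0.07, edgeR adjusted p = 0.0025). Cry1 went from 15.0 to 7.62 CPM and from 12.1 to 7.95 CPM (−0.54 ± 0.14, edgeR adjusted p = 0.0067), and Per3 from 11.5 to 7.62 CPM and from 15.0 to 9.18 CPM (−0.43 ± 0.12, edgeR adjusted p = 0.015). Per1 had a log2 fold change of −0.00 ± 0.05. The median of the members was −0.25, beside −0.03 for all genes. Only Hlf was called by DESeq2 and by gates set on thinned cells. DAM-gated cells were deeper (median 10619 counts in VEH and 10784 in LEM) than cells outside every gate (5854 and 5903), and the part of depth in these differences was not tested beyond the thinning.

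Other clock genes parted in both directions in the DAM gate, with 7 of the 17 tested higher (background 20.3%) and 5 lower (background 17.0%). Bhlhe40 rose furthest, from 0.70 to 34.7 CPM in VEH and from 0.34 to 30.1 CPM in LEM (log2 fold change 6.25 ± 0.20, edgeR adjusted p = 1.5e-10). Nfil3, a D-box repressor, rose (0.58 ± 0.14), as did Rora (0.55 ± 0.15), an activator at ROR elements, with Ciart, Timeless, Skp1a and Bhlhe41. The CPM ratio of Bhlhe41 was below 1 in both libraries and that of Skp1a in VEH, so the direction of this pair rests on the scaling factors. Tef fell (−0.77 ± 0.09), from 33.8 to 19.0 CPM in VEH and from 36.1 to 16.4 CPM in LEM, so Hlf and Tef of the PAR bZIP family were both lower, while Dbp (−0.18 ± 0.11) did not pass the test. Btrc and Gsk3b were also among those that fell.

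In interferon-gated cells, 0 of 10 members were called in either direction by edgeR (background 6.01% higher and 4.73% lower), and DESeq2 called 0. By edgeR 1 of 10 had an unadjusted p under 0.05, as did 3105 of all 15819 genes tested. The log2 fold changes ran from −0.27 ± 0.19 for Cry1 to 0.18 ± 0.16 for Arntl. Of 18 other clock genes tested, 1 rose, Timeless, from 2.08 to 6.94 CPM in VEH and from 3.21 to 14.6 CPM in LEM.

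In proliferating cells, 2 of 10 members fell (Per1 and Clock; background 21.2%) and 1 of 10 rose (Hlf; background 18.3%). Neither share was above that of all genes. Per1 went from 80.4 to 47.7 CPM in VEH and from 72.2 to 37.5 CPM in LEM (log2 fold change −1.02 ± 0.13, edgeR adjusted p = 4.4e-15). Clock went from 48.0 to 39.3 CPM and from 44.5 to 30.9 CPM (−0.58 ± 0.14, edgeR adjusted p = 0.00017). Hlf went from 27.9 to 33.5 CPM and from 24.3 to 40.7 CPM (0.39 ± 0.16, edgeR adjusted p = 0.043), and DESeq2 called neither Clock nor Hlf. Timeless, which is known to act at replication forks, rose from 2.08 to 21.8 CPM and from 3.21 to 26.1 CPM and Gsk3b rose too, while 6 of the 17 other clock genes fell, among them Tef (−1.01 ± 0.19) and Csnk1e (−0.35 ± 0.08).

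**Figure D4:**
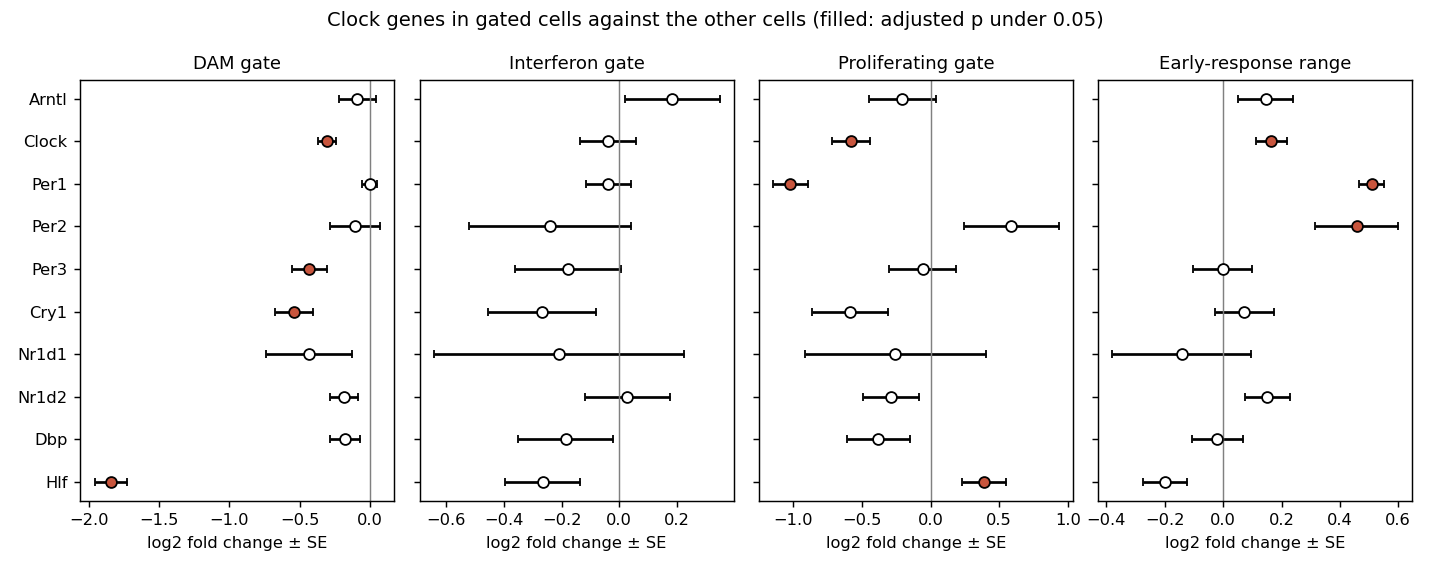
Log2 fold change ± SE (edgeR, 2 libraries as blocks) of each clock gene in cells of 3 gates and in the early-response range, against the other cells. Filled points have an adjusted p under 0.05, the x axes differ between panels, and Hlf in the DAM gate and Per1 in the proliferating gate lie furthest below 0.

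Per1 is known as an early response gene, so the cells highest in immediate early genes were set against the rest. This range was the top 10% of cells outside every gate in each library, and it is a range of a score, not a cell type. In it 3 of 10 members rose (Per1, Per2 and Clock; background 4.96%) and 0 of 10 fell (background 4.07%). Per1 went from 77.5 to 111 CPM in VEH and from 69.8 to 98.9 CPM in LEM (log2 fold change 0.51 ± 0.04, edgeR adjusted p = 7.6e-31). Per2 went from 4.87 to 7.34 CPM and from 6.03 to 7.76 CPM (0.46 ± 0.14, edgeR adjusted p = 0.020), and Clock from 47.6 to 51.4 CPM and from 43.9 to 51.0 CPM (0.17 ± 0.05, edgeR adjusted p = 0.024). DESeq2, and each fit without 1 of the 4 sex pools, called Per1 alone. Nr1d1 and Dbp had log2 fold changes of −0.14 ± 0.24 and −0.02 ± 0.09.

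The 2 other gates held few cells and were not tested. Border-associated macrophages (BAM gate) were 20 VEH and 57 LEM cells, and choroid plexus cells 37 and 126. Per1 was at 83.1 CPM (45.4 to 139) in the BAM gate of VEH and at 70.0 CPM (48.2 to 98.3) in that of LEM. Hlf had 0 counts in the 20 BAM cells of VEH, with an upper interval bound of 21.9 CPM, and stood at 6.36 CPM (1.31 to 18.6) in LEM. Both gates together held between 0.155% and 2.45% of the counts of any member in either library.

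**Figure D5:**
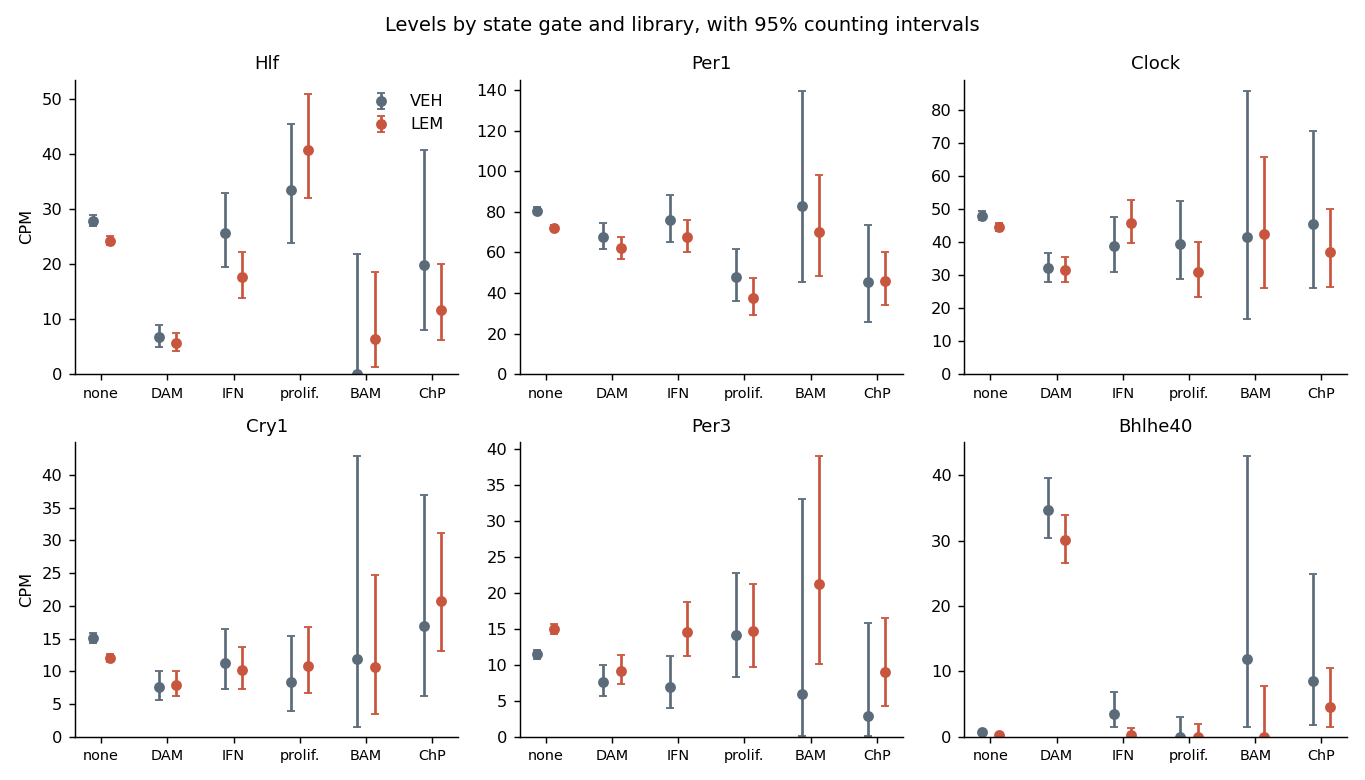
Level (CPM, axis from 0) of 5 clock genes and Bhlhe40 in cells outside every gate (none) and in the DAM, interferon (IFN), proliferating (prolif.), BAM and choroid plexus (ChP) gates of VEH (grey) and LEM (red), with 95% Poisson intervals. Hlf in the DAM gate lies below the cells outside every gate in both libraries, Bhlhe40 is highest in the DAM gate, and the intervals of the BAM and ChP gates are wide.

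Within the gates the opposite ratios of the sexes could be read only where counts allowed. In DAM-gated cells Nr1d2 had a log2 LEM to VEH ratio of −0.87 (−1.53 to −0.21) for female cells and 0.74 (0.15 to 1.35) for male ones. Per3 stood at 0.87 (0.09 to 1.70) in male DAM-gated cells, on 21 and 43 counts, and at −0.48 (−1.44 to 0.48) in female ones. The ratios of Dbp there were both above 0, at 0.21 (−0.56 to 1.00) for female and 0.56 (−0.05 to 1.19) for male cells, and those of Per2 were −0.11 (−1.24 to 1.08) and 0.84 (−0.32 to 2.10), with intervals that all reached 0. Arntl was at −1.06 (−1.76 to −0.38) in male DAM-gated cells. In male interferon-gated cells Per3 was at 1.89 (0.78 to 3.20) and Dbp at 1.27 (0.30 to 2.34), with female intervals that reached 0 for both. Nr1d2 was there at 0.19 (−0.53 to 0.94) for male and −0.14 (−1.23 to 1.08) for female cells, and Per2, on 2 to 11 counts a pool, at 1.07 (−0.69 to 3.17) and −0.98 (−4.11 to 2.60), so no interval of either gene was clear of 0. Among proliferating cells, Nr1d2 was at −2.19 (−4.22 to −0.57) for female cells, on 17 and 4 counts, and at 0.56 (−0.60 to 1.84) for male ones. Per3 (0.64 and −0.27) and Per2 (0.22 and −0.12) were there above 0 in female and below 0 in male cells. Dbp was at −0.10 in female and 1.09 in male cells. All intervals of Per3, Per2 and Dbp in this gate reached 0.

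By position in mm10, 5 of the 10 members overlap another annotated gene, and use of strand in the counting is not given in the sources used here. Nr1d1 (chromosome 11, 98767932 to 98775333, minus strand) overlaps Thra and Dbp (chromosome 7, 45705088 to 45710203, plus strand) overlaps Sphk2, each on the other strand. Per3 (chromosome 4, 151003652 to 151044665, minus strand) overlaps Camta1 on its own strand. Clock (chromosome 5, 76209868 to 76304792, minus strand) overlaps a pseudogene and a predicted gene on its own strand, and Arntl (chromosome 7, 113207465 to 113314126, plus strand) a predicted gene on the other. The overlaps were read from a GENCODE annotation, which was not checked against the one used for counting. Counts of these 5 genes may be uncertain to that extent, which was not tested. Per1, Per2, Cry1, Nr1d2 and Hlf overlap no other gene in the annotation.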

How the data were processed

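Microglia from 2 pools of 5 mice were profiled as 2 single-cell libraries. The authors aligned reads to mm10 with Cell Ranger 8.0.0, per the labels, and the study's methods name SoupX and filters on genes, counts and mitochondrial share. The deposited table holds whole-number counts of molecules per gene and cell for 42766 cells, fewer than the study states. Every cell had at least 501 genes and at most 19999 counts. Whether SoupX correction is in these counts is not given in the sources used here. Cell names carry no barcodes, so barcodes shared by the libraries could not be counted.

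The members, lists and gates were chosen with earlier results of these data known. Counts were summed per library, sex and gate with Python 3.11.15 (scanpy 1.11.5). Ratios carry exact conditional Poisson intervals (95%). Gates use 7 of 8 listed DAM markers, 6 of 7 listed choroid plexus markers and all markers of the other lists. Cells in several gates were left out of contrasts. States were tested with edgeR 4.0.16 (glmQLFit, TMM factors, library as block, Benjamini-Hochberg over all genes, threshold 0.05) in R 4.3.3, with DESeq2 1.42.0 as an alternative. Named genes are the 10 members, a list of 20 other clock genes, and, for members detected in at least 10% of cells, the 3 genes most like each at r of at least 0.9. In simulated counts, 200 genes drawn from those above the median count were changed by 1 on the log2 scale. The overdispersion was set by hand. EdgeR recovered 100% in the DAM, 99% in the interferon, 86.5% in the proliferating and 97% in the early-response contrast, over 15826, 15819, 15731 and 15752 genes. These shares do not give the recovery of genes with lower counts or of smaller changes. Scrublet's automatic threshold called 0 doublets in VEH and 3113 in LEM, so no doublets were removed, and as an alternative the top 10% of cells by score were left out of each library. Thinning drew 2000 counts per cell and left out 1305 VEH and 1215 LEM cells. Other alternatives concerned scaling, detection, gates and pools left out. Promoters were matched to RefSeq by symbol. For 2 genes of the list of other clock genes, values are not reported here.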

Additional observations from a re-analysis of the deposited data

Results flagged for a closer look

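For 6 genes the log2 LEM to VEH ratios lay on opposite sides of 0 in the sexes, with neither counting interval reaching 0. The male minus female difference of log2 ratios was 1.05 for Per2, 1.16 for Per3, 1.08 for Nr1d2, 1.16 for Dbp and 0.73 for Tef, all higher in male and lower in female cells. It was −0.24 for Bhlhe41, in the reverse direction. With 1 pool of mice per sex and library, the difference was not tested against the spread between mice. After thinning to 2000 counts per cell, the ratio of Per2 was above 0 in both sexes (0.12 female, 0.40 male) and its intervals reached 0, as did the female interval of Per3.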

How the results depend on the processing

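In LEM against VEH, the 10 members kept the sign of their library ratio under 9 of 10 alternatives, and 6 of 10 changed sign in female cells alone. Several alternatives could hardly change a sign. Median-of-ratios scaling and totals without the 20 most abundant genes moved ratios by at most 0.014 and 0.011, and the ratio nearest 0 was −0.10 (Clock). Ungated cells alone were 93.6% of VEH and 92.5% of LEM cells. Members at least 1.2-fold higher with the same sign in both sexes numbered 1 after thinning (Per2), in place of 0, and in male cells alone, where no rule on sign applies, 5 were at least 1.2-fold higher. Members at least 1.2-fold lower numbered 0 after thinning, in place of 1 with the rule on sign, and 4 in female cells alone without it. A stricter filter, detection in at least 10% of cells, kept 5 members, of which 0 were called lower. It left out Cry1, the member called in the main setting. Members higher in male and lower in female cells numbered 2 of 10 after thinning, in place of 4 of 10. Under the stricter detection they numbered 2 of 5 (Nr1d2 and Dbp), because that filter left out Per2 and Per3. The cause of the shifts after thinning was not tested. Shares of all genes were not computed after thinning or under the stricter detection, so these counts have no background beside them.

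Hlf in the DAM gate, Per1 in proliferating cells and Per1 in the early-response range were called under every alternative run. Members called in the DAM gate numbered 4, with 1 by DESeq2, 1 with gates on thinned cells, 8 lower without TMM factors (chosen after seeing the data), where 39.4% of all genes were called lower, and 2 to 3 with a sex pool left out. Of all genes entered, 17.0% were called lower there in the main test, 6.28% by DESeq2 and 8.04% with thinned gates. The thinned DAM gate held 193 VEH and 270 LEM cells. The count was 2 without VEH male cells (Clock and Hlf) and 3 without each of the other pools. In proliferating cells they numbered 3, with 1 by DESeq2 and 1 to 3 with a pool left out, where 1 (Per1) was the count without LEM male cells. In the early-response range they numbered 3, with 1 by DESeq2, 1 for the top 20% of cells, 1 on thinned counts and 1 without any 1 of the pools. Over all genes, 5914 of 15826 entered were called in the DAM gate. Calls there were 3658 of 23455 by DESeq2, 2284 of 13464 thinned and 8210 of 15826 without TMM factors. In the interferon gate they numbered 1699 of 15819, with 720 of 23382 by DESeq2, 708 of 13388 thinned and 1096 of 13500 without LEM male cells. Proliferating cells gave 6209 of 15731, with 4174 of 23368 by DESeq2 and 3061 of 13480 thinned. The early-response range gave 1423 of 15752, with 289 of 23326 by DESeq2, 677 of 13608 thinned and 598 to 819 with a pool left out.

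Values that no test called changed sign in these cases, given as log2 fold changes. In the DAM gate, thinned gates gave 0.094 for Arntl and 0.092 for Dbp, Per1 was 0.0015 with median-of-ratios factors, 0.029 with sex pools as blocks and 0.011 with at least 4 markers, and Per2 was 0.040 with sex pools as blocks. In the interferon gate, Per3 was 0.085 with thinned gates, Cry1 0.0012 and Nr1d2 −0.14 with at least 4 markers, and Nr1d2 −0.022 without TMM factors. In proliferating cells Per3 was 0.10 without TMM factors, 0.039 with sex pools as blocks and 0.38 with thinned gates. In the early-response range Per3 was 0.0017 with median-of-ratios factors, 0.0025 without TMM factors, 0.037 with sex pools as blocks, 0.092 for the top 20% and 0.096 on thinned counts, Nr1d1 was 0.082 for the top 20%, and Dbp was 0.015 with sex pools as blocks, 0.078 for the top 20% and 0.11 on thinned counts. With a library left out, values were plain CPM ratios without scaling factors or a test, while those with a pool left out came from the fit. The ranges that follow join both scales. On plain CPM the median gene of the DAM gate was itself lower by 0.26 (VEH) and 0.25 (LEM). With a pool or library left out, values ranged in the DAM gate from −0.58 to 0.013 for Arntl, −0.25 to 0.038 for Per1 and −0.36 to 0.11 for Per2. In the interferon gate they ranged from −0.13 to 0.29 for Arntl, −0.31 to 0.041 for Clock, −0.093 to 0.0036 for Per1, −0.73 to 0.033 for Per3, −0.80 to 0.038 for Nr1d1 and −0.051 to 0.11 for Nr1d2. In proliferating cells they ranged from −0.45 to 0.36 for Arntl, −0.18 to 0.41 for Per3 and −0.46 to 0.51 for Nr1d1, and in the early-response range from −0.091 to 0.16 for Per3, −0.036 to 0.15 for Cry1 and −0.13 to 0.15 for Dbp. No paired analysis was possible because there is 1 library per treatment, so LEM and VEH have no pairs to block on. The state contrasts compared cells within each library, with library as block. With few counts, Nr1d1 and Per2 are the members whose ratios depth limits most.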

Other observations

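Gene likeness was read over 16 points (2 libraries, both sexes, and the DAM, interferon, proliferating and ungated cells), as Pearson's r of log2(CPM + 1) among 7526 genes, for the 5 members detected in at least 10% of cells. The points share libraries and differ in depth, so r is a description. The genes most like Per1 were Procr (0.94), Ssbp4 (0.92) and Creld1 (0.91), and those most like Hlf were Hist2h2aa1 (0.95), Arhgap22 (0.95) and Chst7 (0.94). For Clock, Nr1d2 and Dbp no gene reached 0.9.

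Clock transcripts were sparse in single cells. At 2000 counts per cell, 63.6% of VEH and 64.3% of LEM cells held no count of any member. In LEM this share was 68.0% of female and 61.0% of male cells, and in VEH 64.7% and 62.4%. Without thinning, 31.6% of VEH and 30.9% of LEM cells held none.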
